A study of Mus musculus with 11 samples.

Results

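Chromatin accessibility was examined at 34 genes of fibroblast growth factor (FGF) signalling in a mouse bone cell line: 20 genes for FGF ligands, 7 for receptors, receptor-like proteins and co-receptors, 2 for docking proteins and 5 for feedback inhibitors. The 20 include Fgf11 to Fgf14, intracellular homologous factors that are not secreted but are counted with the ligands throughout. A region was assigned to a gene when it overlapped the gene body or the 20 kb ahead of the gene, with coordinates from GENCODE vM21 on the mm10 build. By this rule 336 of the 94963 accessible regions in the deposited list were assigned. Fgf6 and Fgf23 were not analysed here.

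The assay was ATAC-seq: Tn5 transposase cuts open chromatin and leaves sequencing adapters at the cuts. The 11 libraries came from MPC2, a temperature-sensitive, conditionally immortalised mouse mesenchymal progenitor line grown from 1 clone, so all groups shared its genetic background. Undifferentiated cells, taken as MSC-like, gave 3 libraries after vehicle (DMSO) and 3 after FG-4592, and cells differentiated for 3 weeks, taken as osteocyte-like, gave 2 after vehicle and 3 after FG-4592. FG-4592 (Roxadustat) inhibits the prolyl hydroxylases that mark hypoxia-inducible factors (HIF) for destruction, and it was given at 50 uM for 48 hours. The regions used here form 1 list over all of these libraries with 1 level each, so the groups cannot be told apart, no value has a replicate error and no difference between MSC and osteocyte cultures or between FG-4592 and vehicle could be tested. The level of a region is an average log2 CPM, where CPM is the number of transposase cuts scaled to a common library size. Levels of regions of different width were compared as CPM per kb, that is, as 2 to the power of the level, divided by the width in kb.

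FGF ligands bind receptor tyrosine kinases together with heparan sulfate, or together with a Klotho co-receptor in the case of the endocrine ligands. The activated receptor phosphorylates the docking proteins of the FRS2 family, which recruit Grb2 and Sos1 and start the RAS-ERK cascade, and ERK activity induces Sprouty and Spred proteins that dampen the same cascade. In bone, signalling through Fgfr1, Fgfr2 and Fgfr3 governs the growth of skeletal progenitors, the growth plate and the maturation of osteoblasts, and osteocytes are a main source of the endocrine ligand FGF23.

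Of the 34 genes, 29 had at least 1 region in their window, where 79.5% of 21938 protein-coding genes did. No region was listed at Fgf3, Fgf4, Fgf10, Fgf16 or Kl. A region lay within 1 kb of an annotated start of 26 genes, against 64.1% of all protein-coding genes, and within 1 kb of the 5 prime end of the RefSeq gene of 21, against 59.0% of 20870 genes. The FGF genes as a set were read against these backgrounds only as a description, and the counts by role are given likewise. The RefSeq start was accessible at 5 of 5 feedback inhibitors, 2 of 2 docking proteins, 4 of 7 receptors and co-receptors and 10 of 20 ligands. Of the intracellular factors counted with the ligands, Fgf11 had a region there and Fgf12, Fgf13 and Fgf14 did not. The members were chosen with earlier results of these data known, and the difference between roles was not tested.

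The number of regions was dominated by Fgfr2. In GENCODE vM21, 1 of the 27 Fgfr2 transcripts extends the gene to 2.96 Mb, whereas the RefSeq gene spans 104.4 kb, and the rule therefore assigned 173 regions to Fgfr2. Of these, 164 lay beyond the RefSeq gene and its 20 kb upstream, in a stretch that holds 30 other protein-coding genes, and 32 of the 164 were within 1 kb of a start. The highest region by the rule, at chr7:133121634-133124848 with a level of 6.66, lay at the start of Ctbp2, a transcriptional corepressor gene. With Fgfr2 limited to its RefSeq extent, Fgfr2 had 9 regions and the 34 genes together had 172, with the same 29 genes keeping at least 1. The detail below uses this limited extent, and the counts of regions, the medians over all members and the AP-1 share are also given by the rule. By the rule, 3 of the 10 highest regions lay in the stretch beyond the RefSeq window, and the highest Fgfr2 region away from a start was chr7:130673214-130674113, at 5.04.

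**Figure D1:**
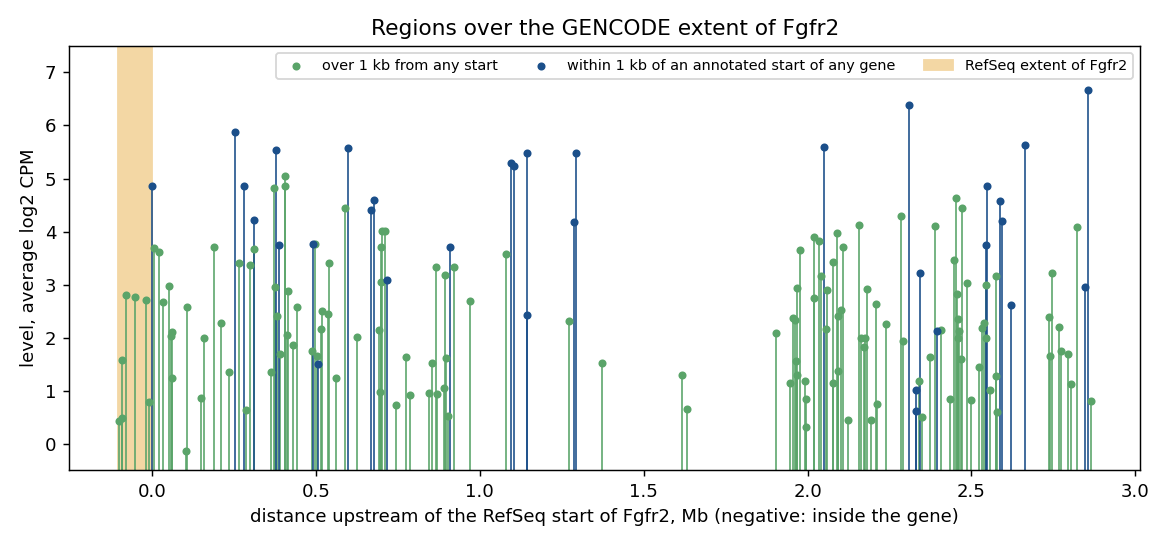
Level of each of the 173 regions assigned to Fgfr2 by its GENCODE extent (vertical axis, average log2 CPM) against distance upstream of the RefSeq start in Mb. The shaded RefSeq extent of 104.4 kb and its 20 kb upstream hold 9 regions, and the other 164 spread over the stretch, many of them in blue at starts of other genes.

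Of the 172 regions, 40 lay within 1 kb of a start of their own gene, 8 at the start of another gene inside the window, 28 elsewhere upstream, 90 in introns and 6 in exons. Their median level was 2.11 log2 CPM, against 2.12 over all 94963 regions, and their median CPM per kb was 9.35 against 9.52. By the rule as written the medians over 336 regions were 2.25 log2 CPM and 9.78 CPM per kb. As a set, then, FGF regions had about the level of the average region, and the larger contrasts lay within the set. Within each class their medians were a little lower, at 3.68 against 3.89 log2 CPM near starts and 1.77 against 1.89 away from starts. Regions near a start had a median of 27.4 CPM per kb for feedback inhibitors (n = 7), 26.0 for docking proteins (n = 6), 17.0 for receptors and co-receptors (n = 9) and 12.8 for ligands (n = 26), where all such regions had 17.1. Matched for width, their median percentiles among start regions were 70.4, 72.8, 49.5 and 46.2 in the same order, so receptors and ligands were then close. Starts of other genes inside the windows are included, with 6 of the 26 ligand regions, 1 of the 9 receptor regions and 1 of the 6 docking-protein regions lying only at such a start. Own-start regions shared with a start of another gene were 2 more at Frs3, those of Spry1 and Spry4, and 1 each at Fgf2, Fgf20 and Fgfr3. Away from starts the medians were closer together, from 7.65 CPM per kb for ligands (n = 68) to 9.45 for feedback inhibitors (n = 19), against 8.90 over all regions of that kind. Fgf12 alone held 21 of the 68 ligand regions, and without it, an alternative chosen after the values were seen, the ligand median was 8.99 (n = 47), above the 8.30 of receptors and co-receptors (n = 20).

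**Figure D2:**
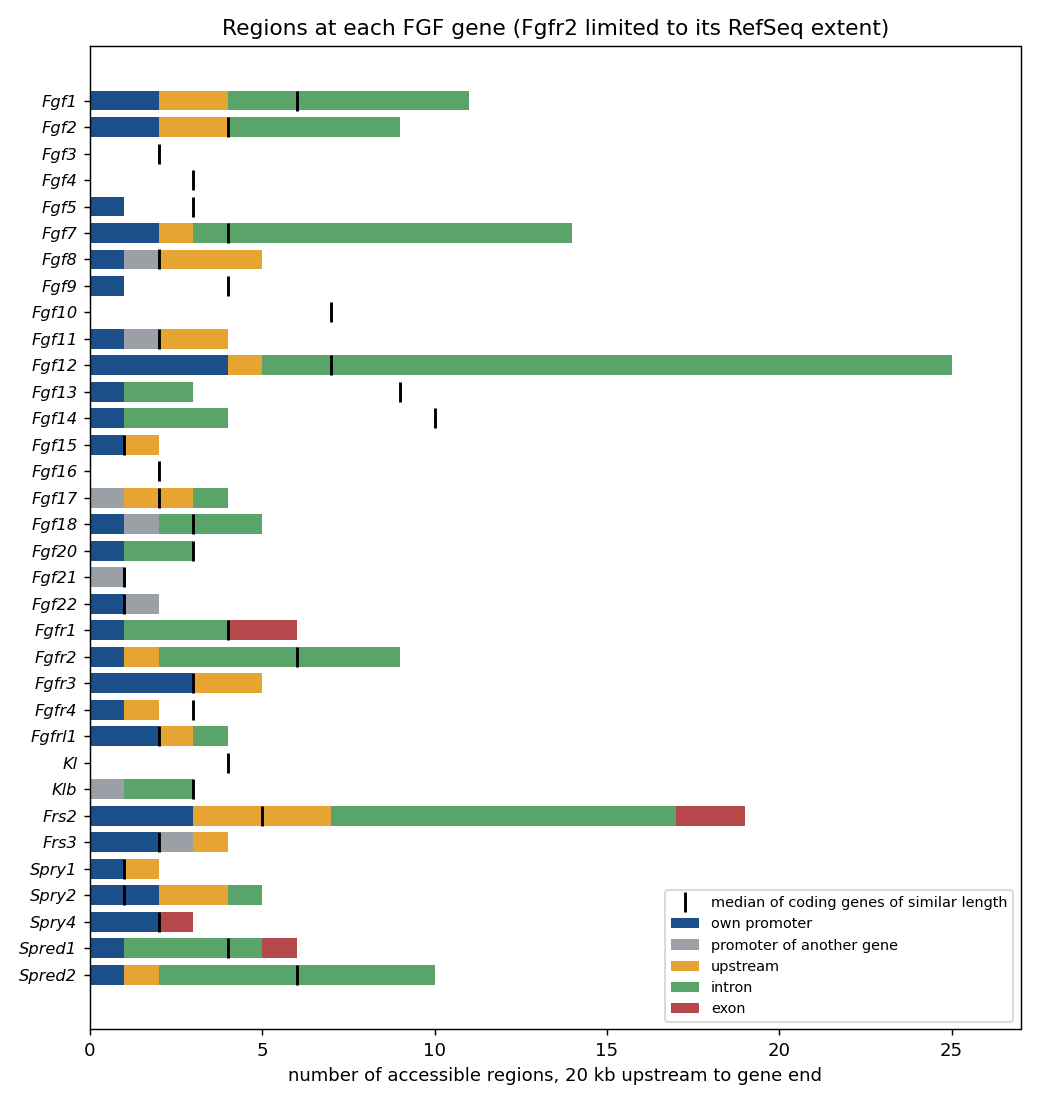
Number of accessible regions at each of the 34 genes (horizontal axis), coloured by place in the gene, with Fgfr2 limited to its RefSeq extent. The black marks give the median of protein-coding genes whose windows are within 20 percent of the same length. Fgf12 with 25, Frs2 with 19 and Fgf7 with 14 lie far to the right of theirs, and Fgf3, Fgf4, Fgf10, Fgf16 and Kl have no bar.

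Long genes collect more regions by length alone, so each count was set beside protein-coding genes with a window within 20 percent of the same length. Frs2 had 19 regions where such genes had a median of 5, and 98.9% of 1766 had fewer. Fgf7 had 14 regions where the median was 4, and 97.7% of 2429 had fewer. By this share these loci stood highest of the set, followed by Spry2 (5 regions, median 1, 91.3% with fewer) and Fgf8 (5 regions, median 2, 90.1% with fewer). At the sparse end, Fgf9 had 1 region (median 4), Fgf13 had 3 (median 9) and Fgf14 had 4 (median 10). Fgf13 lies on chromosome X, as does Fgf16, which had no region. That chromosome held 9.1 regions per Mb, against 37.0 on autosomes other than chromosome 16. Its part in these counts was not tested.

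Among the receptor genes, the start of Fgfr1 was the most accessible of the 4 receptor kinases, and Fgfr2 and Fgfr3 followed. The promoter region of Fgfr1, a receptor prominent in mesenchymal progenitors and osteoblasts, was at chr8:25518499-25520035, with a level of 5.58 and 31.1 CPM per kb, above 58.0% of the 12315 coding genes with a region at their RefSeq start. The Fgfr3 start, at a gene known as a brake on growth of the growth plate, was covered by chr5:33721508-33722504 at a level of 4.54 and 23.4 CPM per kb, above 41.1% of those genes. The Fgfr2 start was covered by a wider region, chr7:130264951-130266663, at a level of 4.86 and 17.0 CPM per kb, above 28.0%. The order Fgfr1, Fgfr3, Fgfr2 is per length, and on the level itself Fgfr2 stood above Fgfr3. The distances between them have no error, so which of these neighbours differ is not known.

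Fgfr4, a receptor best known from liver, had no region within 1 kb of its RefSeq start. Its only region counted as a promoter, at chr13:55155585-55155922 with a level of 0.83, was centred at 2935 bp inside the gene and overlapped a noncoding exon, and its other region, at -3750 bp, had a level of 1.46. Fgfrl1, a receptor-like protein that binds FGF but lacks the kinase, had the highest start of the receptor group: chr5:108693758-108695292 had a level of 5.67 and 33.1 CPM per kb, above 61.8% of coding genes with a region at the start.

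Both Klotho co-receptors were without a region at their own start. Kl encodes alpha-Klotho, the co-receptor through which FGF23 acts in kidney, and its whole window of 61.2 kb held no region, where similar genes had a median of 4. Klb encodes beta-Klotho, the co-receptor of FGF15 and FGF21. Its window held 3 regions, of which the highest away from a start, in the first intron at chr5:65353858-65354769, had a level of 4.12 and 19.0 CPM per kb, above 77.3% of regions of similar width that also lay over 1 kb from any start. The other high region at Klb, at 4.06, was the start of Rfc1, a DNA replication factor gene.

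Within the receptor kinase genes, the region away from a start with the highest level was in Fgfr1. The region chr8:25535681-25537945 in the second intron was 2265 bp wide with a level of 5.30, nearly that of the promoter, but at 17.4 CPM per kb it stood above only 45.2% of the 73 regions of like width. The next region in that intron, chr8:25542935-25544451, had a level of 3.81 and 9.23 CPM per kb and stood above 14.7% of its like. The narrower region chr8:25521460-25521960 in the first intron, at 2951 bp, had a level of 3.39 and stood above 95.6% of 8438. For Fgfr2 the highest such region was upstream, at -6715 bp (chr7:130273196-130273850, level 3.69 and 19.7 CPM per kb, above 89.5% of 6959), so that per length it stood above the wide Fgfr1 region. For Fgfr3 it was chr5:33701833-33702220, at -19698 bp with a level of 1.98, and for Fgfrl1 chr5:108696488-108697018, in the second intron with a level of 3.11. Fgfr4 had none other than the region at -3750 bp (chr13:55148914-55149223).

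The docking proteins couple the receptor kinases to Grb2 and Shp2. Frs2, which encodes the main docking protein, had its start in chr10:117148194-117148999 at a level of 4.77 and 33.8 CPM per kb, above 63.1% of coding genes with a region at the start. A further 18 regions lay around it, 10 of them in introns and 4 upstream. The highest away from a start, chr10:117151276-117151693 at -3010 bp, had a level of 3.73 and stood above 99.2% of 8203 regions of similar width. In total 5 of the 17 docking-protein regions away from starts were above 90 percent of their like, all of them at Frs2, where 7 of 68 ligand regions, 1 of 20 receptor regions, 3 of 19 inhibitor regions and 16 of all 124 were. Frs3, the second family member, had its RefSeq start in chr17:47687578-47689437 at a level of 6.13 and 37.5 CPM per kb. That region also covers the start of Tomm6, a mitochondrial import gene, and a second Frs3 region at 6.01 (chr17:47694309-47695415, 58.2 CPM per kb) also covers the start of Prickle4, so the share of Frs3 in either cannot be told apart. Away from starts Frs3 had only chr17:47676582-47676912, at 1.86.

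Every feedback inhibitor had an accessible start. All 5 starts are CpG-rich, a class of start of which 90.9% had a region over all coding genes, so 5 of 5 is near that share. In level, 4 of the 5 reached the median of coding genes with a region there (27.4 CPM per kb). Against start regions of similar width, Spry2 stood above 89.7%, Spred1 70.4% and Spred2 69.2%, but Spry4 above 43.7% and Spry1 12.8%. Spry2, a Sprouty protein induced by FGF in many tissues, was the highest per length: chr14:105896944-105898088 had a level of 6.05 and 57.8 CPM per kb, above 90.1% of the 12315 genes. Spred1, which recruits neurofibromin to switch RAS off, had chr2:117119908-117121436 at 5.97 and 40.9 CPM per kb (above 74.4%). Spred2, its paralogue, had the highest level of all 172 regions, 6.44 over 2455 bp of chr11:19923909-19926363, which is 35.4 CPM per kb (above 66.2%). The spread between paralogues was wide, since Spry1, with chr3:37639484-37641141 at 4.75 and 16.2 CPM per kb, stood above only 26.3%.

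Next to the starts of Spred2 and Spry2 lay upstream regions that were high for their kind. At Spred2, chr11:19919553-19920746 at -4293 bp had a level of 5.80 and 46.7 CPM per kb, above 97.6% of 2728 regions of similar width over 1 kb from any start. At Spry2, chr14:105898668-105899141 at -2085 bp had a level of 4.33 and 42.4 CPM per kb, above 99.7% of 8427. The former was the only region away from a start among the 10 highest of the 172, of which 8 were at a start of their own gene. The Spry1 counterpart, chr3:37631981-37632683 at -7615 bp, had a level of 2.97 and stood above 55.3%. The other 8 regions of Spred2 were in the first intron. Spred1 had 4 there and 1 in the 3′ UTR, the highest of them being chr2:117151790-117152415 in the intron, at 2.53 and above 42.6% of its like. The 3′ UTR region, chr2:117180445-117180868, had a level of 2.34 and stood above 80.1%.

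The sequence before the start is shown for some of the receptors and inhibitors: Fgfr1, Fgfrl1, Spry2 and Spred2, each with a region at the start, and Fgfr4 and Kl, each without. The Spry2 region reaches only the 5′ end of the stretch shown and extends upstream from there. Each is the 150 bases ahead of the most upstream start within 1 kb of the RefSeq 5 prime end, from the GRCm38 (mm10) assembly, on the strand of the gene, 5′ to 3′ and outside annotated exons, with CpG dinucleotides in capitals. The stretches are chr8:25518609-25518758 (plus strand) for Fgfr1, chr5:108694079-108694228 (plus) for Fgfrl1, chr14:105896820-105896969 (minus) for Spry2, chr11:19924225-19924374 (plus) for Spred2, chr13:55152490-55152639 (plus) for Fgfr4 and chr5:150952457-150952606 (plus) for Kl.
Fgfr1: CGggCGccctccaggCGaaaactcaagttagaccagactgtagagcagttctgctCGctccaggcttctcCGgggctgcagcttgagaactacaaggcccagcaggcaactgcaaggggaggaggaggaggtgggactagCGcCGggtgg
Fgfrl1: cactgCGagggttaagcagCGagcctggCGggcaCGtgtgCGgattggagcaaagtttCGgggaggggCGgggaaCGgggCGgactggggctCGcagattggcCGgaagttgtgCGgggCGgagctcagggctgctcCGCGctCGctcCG
Spry2: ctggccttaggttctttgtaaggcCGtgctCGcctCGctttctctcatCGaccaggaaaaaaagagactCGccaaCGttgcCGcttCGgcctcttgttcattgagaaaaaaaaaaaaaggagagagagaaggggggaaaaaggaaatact
Spred2: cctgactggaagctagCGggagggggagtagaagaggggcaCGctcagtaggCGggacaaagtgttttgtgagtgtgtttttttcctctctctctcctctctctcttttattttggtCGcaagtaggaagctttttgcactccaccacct
Fgfr4: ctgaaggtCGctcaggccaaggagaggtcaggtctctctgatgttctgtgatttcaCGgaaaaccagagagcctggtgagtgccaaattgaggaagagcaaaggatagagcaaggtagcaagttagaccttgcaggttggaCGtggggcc
Kl: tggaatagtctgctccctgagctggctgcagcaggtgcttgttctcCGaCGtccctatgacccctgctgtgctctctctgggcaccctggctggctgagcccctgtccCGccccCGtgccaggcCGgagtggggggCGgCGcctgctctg

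Fgfrl1 had the most CpG in these 150 bases, 17, where Spry2 had 8, Fgfr1 and Kl had 7 each, Spred2 had 4 and Fgfr4 had 3, against a median of 5 over 20864 coding genes. The count in this short stretch did not separate the starts with a region from those without, since Kl held as many CpG as Fgfr1. Fgfrl1, Spred2 and Fgfr4 held a core of the hypoxia response element, ACGTG or GCGTG on either strand, as did 30.8% of all such stretches.

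CpG content was then taken over the 500 bp on either side of the RefSeq start, with a start called CpG-rich at a GC share of at least 55% and an observed over expected CpG ratio of at least 0.6. By this measure 19 of the 34 starts were CpG-rich and 14 of them had a region, where 90.9% of 7649 such starts of coding genes did. The 5 exceptions were Fgf3, Fgf4, Fgf16, Fgfr4 and Kl, with ratios of 0.80, 0.77, 0.85, 0.69 and 0.72, in the range of the accessible ones. Of the other 15 starts 7 had a region, against 40.5% of 13221. By role, CpG-rich starts with a region numbered 5 of 5 for feedback inhibitors, 1 of 1 for docking proteins, 3 of 5 for receptors and co-receptors and 5 of 8 for ligands, and other starts with a region 1 of 1, 1 of 2 and 5 of 12 for the last 3 of these roles. Fgf3 and Fgf4, neighbours on chromosome 7 with 2.9 kb between them, thus both had a CpG-rich start with no region, while the next gene in that cluster, Fgf15, had 2 regions.

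**Figure D3:**
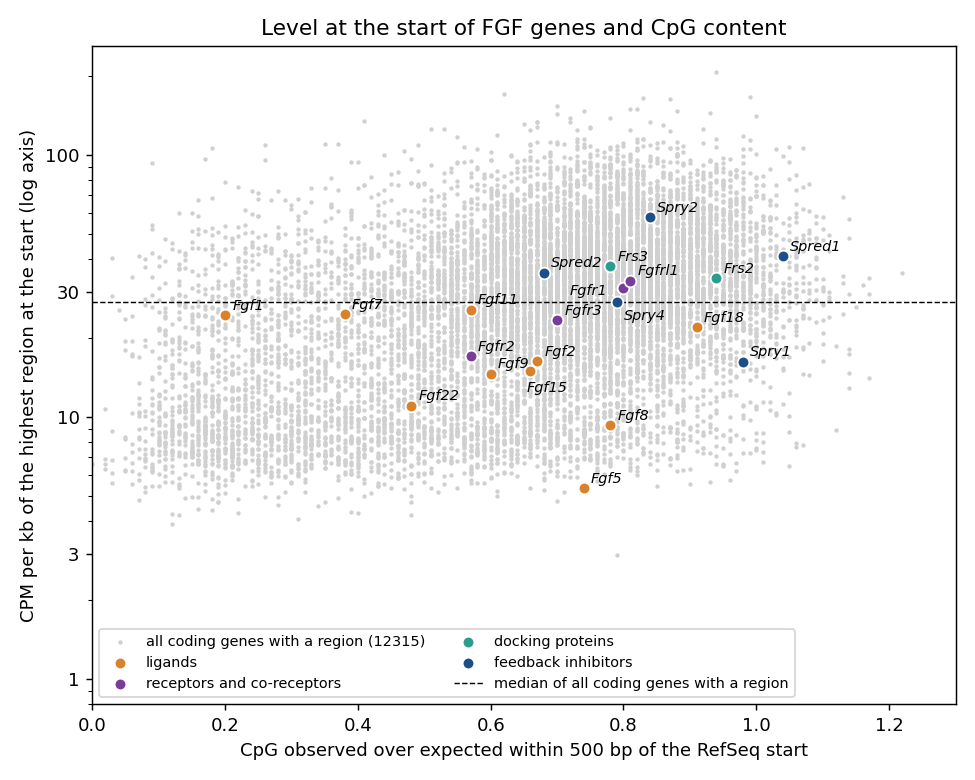
CPM per kb of the highest region within 1 kb of the RefSeq start (vertical axis, logarithmic) against the CpG observed over expected ratio around the start, for 21 FGF genes (coloured by role) and all 12315 coding genes with such a region (grey). The dashed line is the median of all genes, 27.4 CPM per kb. All 10 ligands lie below it, and 4 of the 5 feedback inhibitors lie on or above it. Width is not matched here, and matched shares are given in the text.

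Per length and without matching for width, the ligand genes with a region at the RefSeq start lay in the lower part of the distribution. All 10 were below the coding median of 27.4 CPM per kb, with a range from 5.33 at Fgf5 to 25.6 at Fgf11 and a median of 15.7, whereas the 4 receptors ranged from 17.0 to 33.1 and the 5 feedback inhibitors from 16.2 to 57.8. Against start regions of similar width the ligands were spread. Fgf1 stood above 93.8%, Fgf15 86.2%, Fgf7 71.5%, Fgf22 65.5% and Fgf8 52.4% of their like. Fgf18 stood above 26.0%, Fgf2 12.5%, Fgf9 11.8% and Fgf5 5.54%. The Fgf11 region, over 1 kb from GENCODE starts, stood above 90.5% of regions of that kind. On the level itself only Fgf18 (5.32) of these 10 was above the coding median of 5.04. The Fgf20 region at a start away from the RefSeq start, shared with Micu3, had 5.90 and 39.7 CPM per kb.

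In the FGF1 subfamily, the broadly acting ligands that are exported without a signal peptide, both genes had several regions. The highest region of Fgf2, an abundant growth factor of mesenchymal cells, was not its start (chr3:37348157-37349608, level 4.56) but the region chr3:37360474-37361325 in the first intron, at 12422 bp, with a level of 4.90 and 35.1 CPM per kb against 16.3 at the start. It stood above 96.5% of 5619 regions of similar width away from starts. Fgf2 had 9 regions and Fgf1 had 11. The highest at Fgf1, chr18:38930357-38930784, was centred at -1100 bp with a level of 3.39 and 24.4 CPM per kb.

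Each of these ligands has a Sprouty gene as a distant neighbour, Fgf2 with Spry1 at 229.8 kb and Fgf1 with Spry4 at 237.3 kb, an arrangement singled out after the values were seen. Spry4, a Sprouty induced by ERK activity, had its start in chr18:38600486-38601804 at a level of 5.18 and 27.4 CPM per kb, above 50.1% of the coding genes with a region at the start. Its highest region away from a start, chr18:38590317-38590656 in the coding exon, had a level of 1.55. Per length the start of Spry4 stood at 27.4 against 24.4 CPM per kb for Fgf1, and that of Spry1 stood at 16.2 against 16.3 for Fgf2, with no error to set beside either difference.

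Fgf7 led the FGF7 subfamily, whose members signal from mesenchyme to epithelium. Its start region had a level of 4.23 and 24.6 CPM per kb, and its highest region was chr2:126039297-126040244, in the second intron at 5112 bp, with a level of 4.54 and 24.5 CPM per kb. Of its 14 regions 11 were in that intron, with levels from 0.12 to 4.54. The relatives of Fgf7 had fewer regions. Fgf10, which encodes the ligand of limb and lung budding, had none in a window of 142.3 kb where similar genes had a median of 7, and Fgf3 had none either. Fgf22 had 2 regions, where similar genes had a median of 1. Its start was at 2.30 (chr10:79754959-79755404), while the highest region in its window, chr10:79745974-79747062 at 5.02, was the start of Polrmt, the mitochondrial RNA polymerase gene.

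In the FGF8 subfamily, whose members pattern the embryo and of which Fgf18 acts on chondrocytes and osteoblasts, the highest region in every window lay at a neighbouring nucleophosmin gene. At Fgf18 it was chr11:33162180-33163676 (level 5.92, 40.3 CPM per kb) at the start of Npm1, at Fgf8 chr19:45748697-45749773 (4.63, 23.0 CPM per kb) at the start of Npm3, and at Fgf17 chr14:70658751-70659963 (4.27, 15.9 CPM per kb) at the start of Npm2. The genes of each pair are 4.9, 4.8 and 5.0 kb apart. This shared arrangement was singled out after the values were seen. At their own starts, Fgf18 had 22.0 CPM per kb (level 5.32), Fgf8 had 9.27 (level 1.93) and Fgf17 had no region. Fgf18 had the highest level among the 10 ligands with a region at the RefSeq start, and Fgf8 had 3 small upstream regions besides, at levels from 1.45 to 2.08.

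In the FGF4 and FGF9 subfamilies every gene had at most 3 regions. Fgf4, a ligand of the early embryo and limb bud, had no region, and Fgf5, known as the signal that ends hair growth, had only chr5:98253867-98254110 at its start, at a level of 0.38, above 0.414% of the coding starts with a region. Fgf9, a ligand of skeletal and gonadal development, had chr14:58071079-58072372 as its only region, with a level of 4.24 and 14.6 CPM per kb. Fgf16 had none. Fgf20 had 3 regions, the median of similar genes, and the region counted as its start, chr8:40307223-40308721 at 5.90, lay at -21019 bp from the RefSeq start, where a long GENCODE transcript of Fgf20 begins beside Micu3, a mitochondrial calcium uptake gene.

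The endocrine ligands, Fgf15 and Fgf21, reach distant organs as hormones and are made mainly in ileum and liver. Fgf15 had a region at its start (2.22, 15.0 CPM per kb) and a wider one upstream, chr7:144891700-144892527 at -4419 bp, which was higher in level (3.11) but lower per length (10.4 CPM per kb). The only region at Fgf21, chr7:45617276-45617567 with a level of 0.67, lay at the start of Fut1.

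The intracellular FGF homologous factors, Fgf11 to Fgf14, are not secreted and bind voltage-gated sodium channels instead of receptors. Fgf11 had chr11:69802623-69803331 at its start, centred at -33 bp with a level of 3.97 and 22.1 CPM per kb. Its highest region was the adjacent chr11:69803368-69804227, centred at -853 bp, with a level of 4.46 and 25.6 CPM per kb. That region is within 1 kb of the RefSeq start and gives the value of Fgf11 there, but it is over 1 kb from the GENCODE starts and is counted as upstream in the classes and motif shares. Fgf12, Fgf13 and Fgf14 had no region within 1 kb of their RefSeq start. Fgf12 and Fgf14 had regions at internal starts of shorter transcripts. Fgf13 had 1 at the 5 prime end of its GENCODE gene, 18206 bp inside the RefSeq gene. At Fgf13 that region, chrX:59566985-59567748, had a level of 2.10, and at Fgf14 chr14:124192055-124192808 had 2.22. The highest region of Fgf13 was chrX:59220685-59221183 in an intron at 2.26, that of Fgf14 was the internal start, and that of Fgf12 was chr16:28593102-28593546 in an intron at 2.63. Fgf12 had 25 regions in 613.0 kb, the most of any member after Fgfr2 by the rule, but all were at or below 2.63 and similar genes had a median of 7. Chromosome 16 as a whole had 59.6 regions per Mb with a median level of 1.77, against 37.0 and 2.15 on the other autosomes, and the part of the chromosome in this count and in these levels was not tested.

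**Figure D4:**
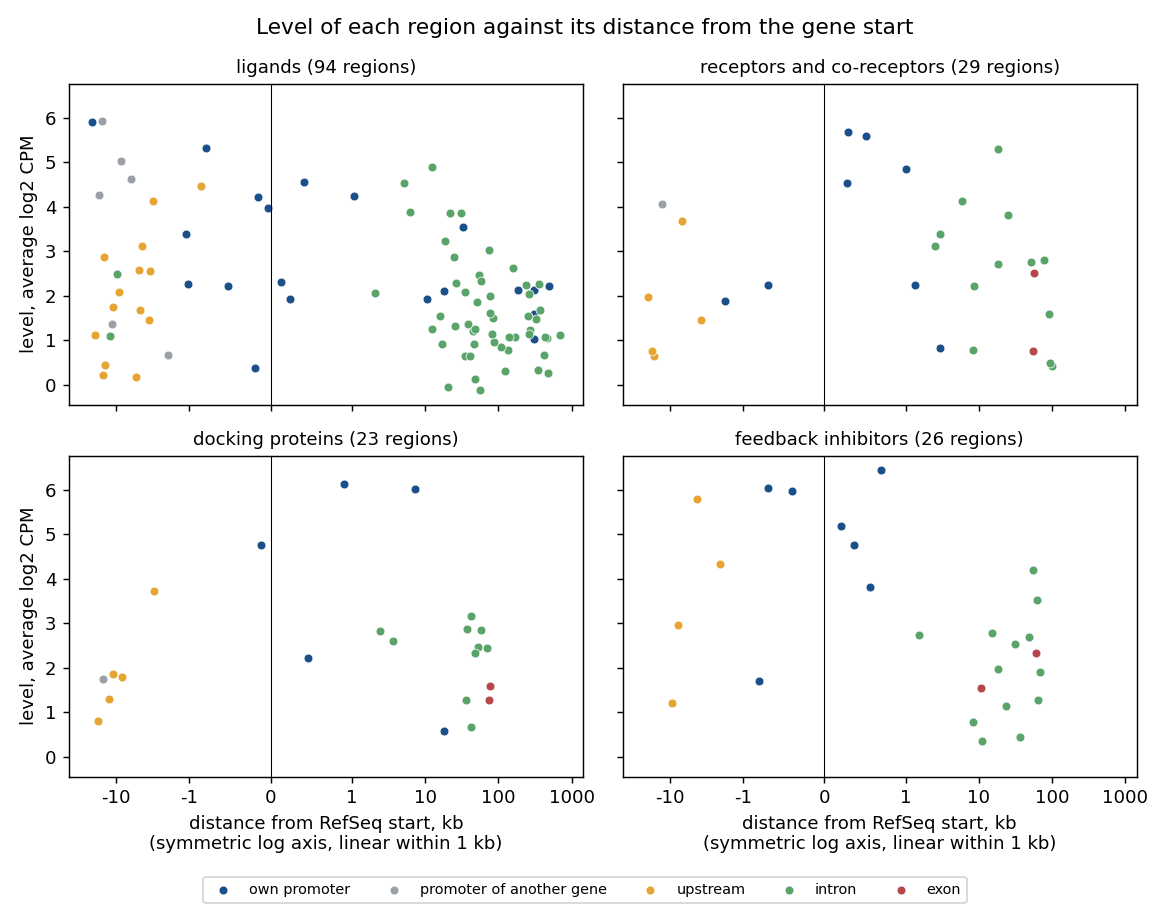
Level of each of the 172 regions (vertical axis, average log2 CPM) against the distance of its centre from the RefSeq start in kb (symmetric logarithmic axis), in 4 panels by role and coloured by place. Levels of 5 and above are at starts of the gene itself, alternative ones included, or of a neighbouring gene, except for the upstream Spred2 region at 5.80 and the second-intron Fgfr1 region at 5.30, and long-range ligand introns hold many regions below 2.

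Motif words were counted in the region sequences as a property the assignment did not use. The AP-1 word, TGAGTCA or TGACTCA on either strand, marks sites where FOS and JUN proteins, themselves induced by ERK, can bind. It occurred in 18 of 124 FGF regions away from starts, 14.5% (95% Wilson interval 9.38 to 21.8), against 23.7% of all 73426 such regions, and in 5 of 48 near starts, 10.4% (4.53 to 22.2) against 16.5%. Without Fgf12 the share away from starts was 17 of 103, 16.5% (10.6 to 24.9), an interval that includes the share of all regions. The share depended on the extent of Fgfr2: the 164 regions in the stretch beyond the RefSeq gene held it in 28.7%, and by the rule as written 20.8% of the 336 regions did, against 22.1% of all regions. The intervals cover counting error only.

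The core of the hypoxia response element, ACGTG or GCGTG on either strand, was counted because FG-4592 stabilises HIF, which binds it. It occurred in 59 of the 124 regions away from starts, 47.6% (39.0 to 56.3), against 38.6%, and in 37 of the 48 near starts, 77.1% (63.5 to 86.7), against 72.3%. A word of 5 letters recurs by composition, and a match is not a site of binding. The ETS word CCGGAA, bound by the ERK-regulated factors Etv4 and Etv5 among others, was in 14 of the 124 (11.3%, 6.85 to 18.1) against 6.53%, and by role it was in 5 of 19 regions of feedback inhibitors, 3 of 20 of receptors and co-receptors, 6 of 68 of ligands and 0 of 17 of docking proteins (Wilson upper bound 18.4%). Of the other words, RUNX (TGTGGT) was in 51.6% against 43.6% and TEAD (GGAATG) in 27.4% against 30.7% of the regions away from starts. Near starts both lay on the other side of the share of all regions, with RUNX in 35.4% against 39.4% and TEAD in 39.6% against 34.2%. These differences were not tested.

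**Figure D5:**
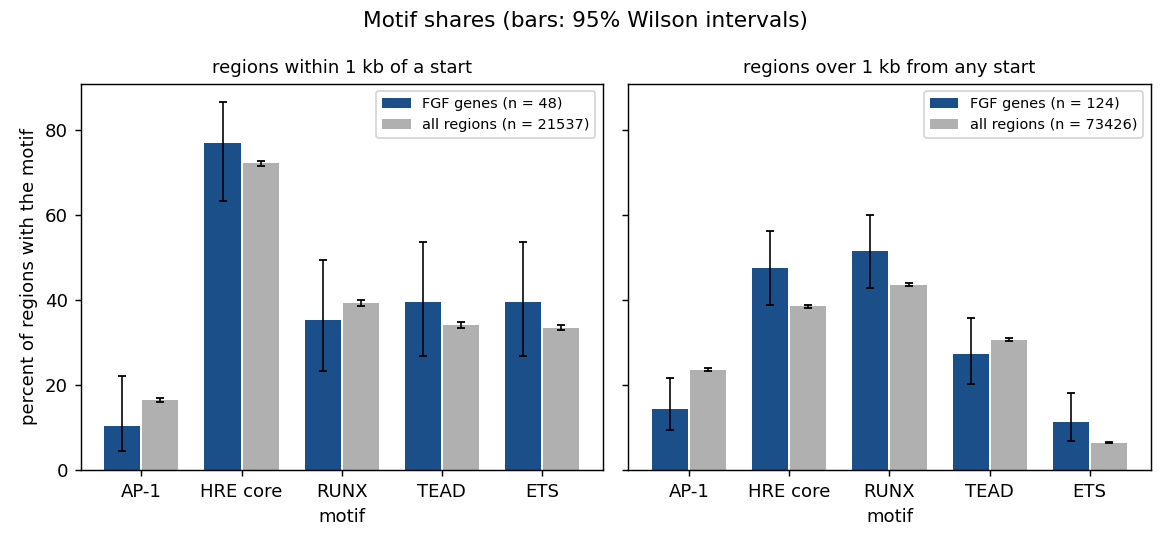
Percent of regions that hold each motif word, for the FGF genes with Fgfr2 limited (blue) and all regions (grey), within 1 kb of a start (left, 48 FGF regions) and farther away (right, 124). Error bars are 95% Wilson intervals for counting error; the AP-1 bar of the FGF genes lies below the grey bar in both panels and the HRE core bar above it.

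The matches in the highest regions away from starts are shown as 61 bases centred on the word, which is in capitals, on the strand of the gene and from GRCm38 (mm10). None overlaps an annotated exon. AP-1 is shown in the 5 highest such regions: the first intron of Fgf2 (chr3:37361052-37361112, plus), the first intron of Spred2 (chr11:19979482-19979542, plus, in a region at 4.19), upstream of Fgf7 (chr2:126031232-126031292, plus, 4.13), the first intron of Frs2 (chr10:117106469-117106529, minus, 3.17) and upstream of Fgf15 (chr7:144891823-144891883, plus, 3.11).
Fgf2 AP-1: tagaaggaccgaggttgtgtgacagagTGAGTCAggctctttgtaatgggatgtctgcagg
Spred2 AP-1: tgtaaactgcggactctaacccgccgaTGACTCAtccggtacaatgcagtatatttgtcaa
Fgf7 AP-1: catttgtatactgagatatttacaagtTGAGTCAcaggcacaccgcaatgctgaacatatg
Frs2 AP-1: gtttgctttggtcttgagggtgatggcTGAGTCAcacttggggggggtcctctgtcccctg
Fgf15 AP-1: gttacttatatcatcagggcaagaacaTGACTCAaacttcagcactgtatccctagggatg

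The HRE core is shown in the 3 highest regions away from starts that hold it, where CACGC and CACGT are the words read on the other strand: upstream of Spred2 (chr11:19920006-19920066, plus), the second intron of Fgfr1 (chr8:25536791-25536851, plus) and the second intron of Fgf7 (chr2:126039736-126039796, plus).
Spred2 HRE: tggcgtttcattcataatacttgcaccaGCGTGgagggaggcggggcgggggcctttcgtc
Fgfr1 HRE: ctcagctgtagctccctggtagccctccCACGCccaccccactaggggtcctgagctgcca
Fgf7 HRE: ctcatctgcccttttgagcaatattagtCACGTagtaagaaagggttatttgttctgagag

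Beyond the 34 genes, a list of 43 further genes of the pathway was examined, of which 42 matched a coding gene. All 42 had a region, against 79.5% of coding genes, and 40 had one within 1 kb of a start, against 64.1%. The exceptions at the start were Map2k1 and Fgfbp1. Per length, the median of the highest start region was 36.2 CPM per kb for the genes of heparan sulfate synthesis and carriers (10 genes), 34.4 for ERK-induced genes and feedback phosphatases (10 genes), 30.9 for other modulators (6 of 7 genes) and 30.5 for adaptors and kinases (14 of 15 genes). All of these were above 27.4 CPM per kb, the median over coding genes with a region at the RefSeq start. That comparison is not like for like, because the pathway values take the highest region at any annotated start. The 14 ligands with a region within 1 kb of any annotated start had a median of 14.8 by the same measure as the pathway genes. The highest starts were those of the ETS factor Etv5 (93.7 CPM per kb), the immediate early gene Egr1 (82.5) and the docking adaptor Gab1 (57.7). The ERK phosphatase Dusp6 had 37.3 CPM per kb.

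As a check of the labelled cell types, 11 of 12 mesenchymal and osteoblast markers had an accessible start (not Thy1), against 1 of 5 osteocyte markers (Dmp1, at 4.41), although all 5 osteocyte markers had a region in their window. The share over all coding genes was 64.1%, and with 3 to 12 genes a list these counts are a description only. Among markers of other cells, 2 of 5 for blood, 1 of 4 for endothelium, 1 of 3 for hepatocytes, 0 of 3 for epithelium and 3 of 3 for neurons had a region at a start, the neuronal ones at levels from 0.89 to 2.76. Their part in the levels of the FGF genes was not tested.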

How the data were processed

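The authors trimmed reads with Trim Galore, aligned them to mm10 with Bowtie2, removed duplicates with Picard 2.17.8, called peaks with MACS2 2.2.7.1, merged them over samples, removed blacklisted regions, counted cuts with pyDNase, dropped regions with few cuts and normalised with edgeR 3.24.3 (TMM). Shifting of cuts for Tn5 is not given in the sources used here. The authors removed 1 library for quality. The deposited list holds 94963 regions with 1 value each, taken from its range (-1.11 to 8.40) and its sum (1012761 CPM) to be an average log2 CPM on the authors' normalisation. Depth per sample is unknown. A region open in a single group stays in the list, and wide regions collect more cuts.

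Regions were assigned by overlap with GENCODE vM21 genes, whose build is that of the list, and starts were also taken from RefSeq (GRCm38). Motif words were searched in GRCm38 on both strands with Python 3.11.15, numpy 2.4.6 and pysam 0.24.0, and intervals are Wilson at 95%. The counting steps were tested on simulated data. No test between groups was made, because each region has 1 pooled value, and the authors' own tables of differentially accessible regions were not used here. The members and gene lists were chosen with earlier results of these data known. Coordinates were given by rule for the 10 highest regions, for the start and the highest other region of receptors, docking proteins and inhibitors, and for the highest region of each ligand; sequences were given for the highest regions with the AP-1 word or the HRE core and for 6 starts, with none from chromosome 18. Matches of each word were counted once per region.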

Additional observations from a re-analysis of the deposited data

How the results depend on the processing

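No paired analysis was possible because each region has 1 pooled value, and no library could be left out for the same reason. Limiting Fgfr2 to its RefSeq extent, chosen after the data were seen, lowered the assigned regions from 336 to 172 by construction. With that limit the AP-1 share went from 20.8% to 13.4% and the HRE core share from 52.4% to 55.8%. The other values here start from the 336 regions by the rule unless said otherwise. Keeping only regions at least 500 bp wide left 157 regions and gave a median level of 3.69, a median of 13.4 CPM per kb, an AP-1 share of 30.6% and an HRE core share of 71.3%. The count fell by construction, and the cause of the other shifts was not tested. In the set with Fgfr2 limited the same choice, added after the data were seen, left 67 regions, with a median of 16.2 CPM per kb, an AP-1 share of 20.9% and an HRE core share of 77.6%, against 13.5, 28.1% and 66.3% over all regions of that width. The AP-1 share was 26.5% with the looser word TGANTCA and 11.3% in the central 200 bp. The HRE core share, 52.4% by the rule, was 26.8% for ACGTG alone, 25.0% in the central 200 bp and 44.1% over 1 kb from any start. With an upstream reach of 10 or 50 kb the assigned regions were 320 and 379, and the genes with a region 29 and 32. Genes with an accessible start ranged from 20 (regions at least 500 bp wide) to 28 (2 kb around a start), against 26. The level is pooled over 4 groups of cultures, so in this list a region open in few libraries cannot be told from one weakly open in all.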
